A study of Rattus norvegicus with 9 samples.

Results

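The amino acid transporter families were taken here as all genes in the deposited table whose symbol begins with Slc1a, Slc3a, Slc6a, Slc7a, Slc16a10, Slc36a, Slc38a or Slc43a, with Slc7a11 left out. The rule gave 62 of the 32623 genes in the table. Of these, 27 were expressed in the sense that they reached 1 FPKM (fragments per kilobase of exon, scaled to the library total) in at least 3 of the 9 libraries, and only these were tested. RNA-seq libraries came from wild-type rat primary aortic smooth muscle cells, the contractile cells of the artery wall, at passages 4 to 8, with 3 libraries in each of 3 groups. All cells were grown in 20% serum, kept for 12 h without serum and then held in 2% serum during treatment. Controls were given DMSO in equal volume. In the PDGF-BB group, platelet-derived growth factor BB, which drives smooth muscle cells to divide, was present for 24 h. Its dose is 10 ng/mL in the sample labels but 20 ng/mL in the design text of the series. Cells of the PDGF-BB+PTUPB group had 0.5 µM PTUPB for 2 h, a dual inhibitor of cyclooxygenase-2 and soluble epoxide hydrolase, before the same growth factor. PTUPB without PDGF-BB was not analysed here. Nothing in the labels states that replicate libraries derive from different cultures or animals. The p-values therefore reflect library-to-library spread alone, which may be technical.

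Amino acids cross the plasma and lysosomal membranes through several carrier families with overlapping substrates. SLC38 proteins are sodium-coupled carriers of glutamine, alanine and other neutral amino acids. SLC1 proteins carry glutamate and aspartate or small neutral amino acids, and SLC7 proteins comprise the cationic amino acid transporters and the light chains of exchangers, which reach the cell surface bound to an SLC3 heavy chain. SLC6 proteins use sodium and chloride to take up glycine, taurine, creatine, proline and monoamines, so the family reaches beyond amino acids. SLC36 carriers are coupled to protons, and SLC43 and SLC16A10 proteins facilitate the transfer of large neutral or aromatic amino acids. In smooth muscle these carriers supply protein synthesis, arginine metabolism and the amino acid signal to the kinase complex mTORC1.

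Library totals ran from 12729187 to 16911050 counts, and 3 counts corresponded to 0.177 to 0.236 CPM (counts scaled to the library total). The smooth muscle genes Acta2, Tagln, Cnn1 and Myh11 had Control means of 659, 1299, 65.2 and 5.99 FPKM, while desmin (Des) stayed at or below 0.180 FPKM in every library. Of 6 endothelial markers measured, 4 had no count in any library, and the summed level of the 6 did not exceed 0.330 FPKM. The macrophage markers Ptprc and C1qa had no count, although Cd14 reached 19.6 FPKM and Cd68 reached 4.43 FPKM. The 6 macrophage markers summed to 15.4 to 24.1 FPKM in Control and 16.7 to 18.4 FPKM with PDGF-BB alone. With PTUPB added they summed to 21.3 to 22.2 FPKM. The 5 adventitial fibroblast markers measured summed to 335 to 351 FPKM in Control libraries. With PDGF-BB alone the sum was 127 to 151 FPKM, and with PTUPB added 259 to 318 FPKM. Scara5 made up nearly all of it, at mean levels of 339, 131 and 276 FPKM. Col14a1 was at 3.56, 0.980 and 2.63 FPKM, whereas Pi16 was at 3.14, 2.92 and 3.16 FPKM and Cd34 did not exceed 0.0800 FPKM. This sum moved with the transporter changes given below, and its part in them was not tested. In bulk libraries, fewer cells of a type and less RNA per cell cannot be told apart.

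A few carriers made up most of the transporter RNA. The highest level belonged to Slc38a2, the system A carrier SNAT2 that imports glutamine and other small neutral amino acids, at 183, 202 and 195 FPKM in Control. It was followed by Slc3a2, the heavy chain 4F2hc (CD98), at a Control mean of 123 ± 2.35 FPKM (SD, n = 3 libraries), and by Slc7a2, the cationic transporter CAT2, at 122 ± 15.1 FPKM. Slc6a6, Slc7a5 and Slc1a3 had Control means of 60.7, 52.4 and 40.6 FPKM. Slc38a10, an SLC38 carrier gene, was at 65.12, 53.45 and 69.93 FPKM in Control, with little spread between 59.5 and 60.9 FPKM in the 6 treated libraries. Of the 61 members that encode a transporter, Slc38a2 alone held 20.5% to 24.7% of the summed FPKM in Control. Its share was 15.6% to 19.2% with PDGF-BB and 17.8% to 24.6% when PTUPB was added. The Control and PDGF-BB ranges of this share did not overlap.

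**Figure D1:**
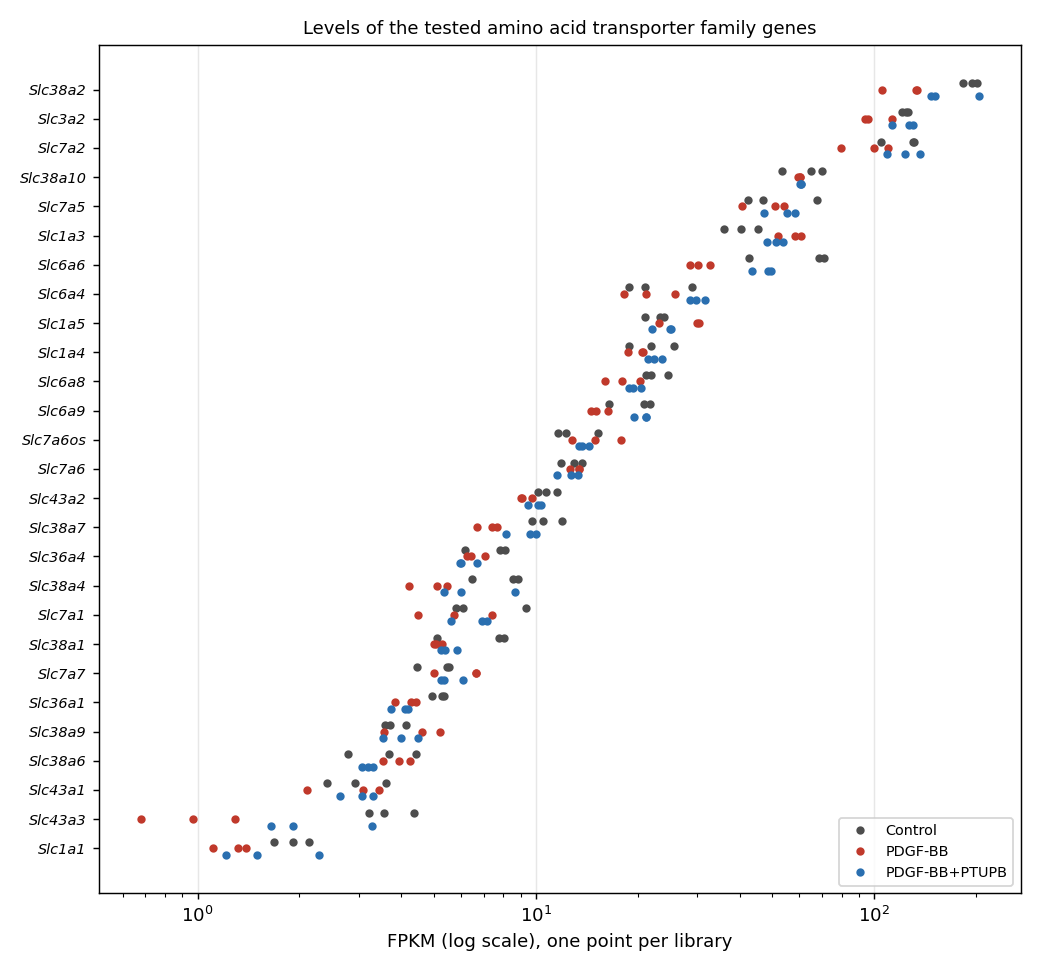
FPKM on a log axis of the 27 tested genes, ordered by mean level, with one point per library in grey for Control, red for PDGF-BB and blue for PDGF-BB+PTUPB. Levels span from 0.680 FPKM in Slc43a3 to 203 FPKM in Slc38a2, and the 3 red points lie left of the 3 grey points for Slc38a2, Slc6a6 and Slc43a3.

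The tested members came unevenly from the families. They were 7 of 11 SLC38 genes, 6 of 15 SLC7 genes, 4 of 7 SLC1 genes, 4 of 19 SLC6 genes, 3 of 3 SLC43 genes, 2 of 4 SLC36 genes and 1 of 2 SLC3 genes. Slc7a6os matches the symbol rule but is named as the opposite strand gene of Slc7a6 and is not a transporter gene, so it is counted but left out of all sums. Of the 35 members below the filter, 14 had no count in any library, among them the dopamine carrier gene Slc6a3 and the kidney and gut carrier gene Slc6a19. A further 13 had at most 30 counts over the 9 libraries, and no member below the filter exceeded 0.860 FPKM in any library. By mean FPKM, the most abundant of them were the aromatic amino acid carrier gene Slc16a10 (0.676 FPKM) and the heavy chain gene Slc3a1 (0.566 FPKM). The glutamate carrier gene Slc1a2 came next at 0.216 FPKM. Its rank rests on 25 counts over the 9 libraries and an exonic length of 882 bases. Slc6a7 had more counts, 120 on 4658 bases. By the third highest library, on which the filter acts, Slc16a10 lay just outside at 0.770 FPKM and Slc1a1 just inside at 1.92 FPKM. Slc7a8, the LAT2 light chain, was also near the limit of detection, with 4 to 16 counts per library.

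Summed over the 61 transporter members, the level was 893, 814 and 866 FPKM in the Control libraries, 694, 722 and 677 FPKM in the PDGF-BB libraries and 828, 826 and 821 FPKM in the PDGF-BB+PTUPB libraries. The PDGF-BB libraries lay below all others, and the PDGF-BB+PTUPB libraries lay within the Control range. The SLC38 sum went from 289 ± 7.30 FPKM in Control to 209 ± 17.5 FPKM in PDGF-BB and 256 ± 33.9 FPKM in PDGF-BB+PTUPB. The SLC6 sum was 126 ± 7.68, 85.7 ± 3.46 and 118 ± 0.679 FPKM in the same order, again with PDGF-BB below both other groups in every library. The sum of the acidic amino acid carriers of SLC1 went the other way, at 42.9 ± 4.77 FPKM in Control, 58.6 ± 4.52 FPKM in PDGF-BB and 53.0 ± 2.6 FPKM in PDGF-BB+PTUPB. The light chains that pair with an SLC3 heavy chain summed to 70.5 ± 13.6, 67.9 ± 8.46 and 71.9 ± 5.59 FPKM, and the 3 groups overlapped. These sums are descriptions with no test, and a few abundant genes dominate each.

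**Figure D2:**
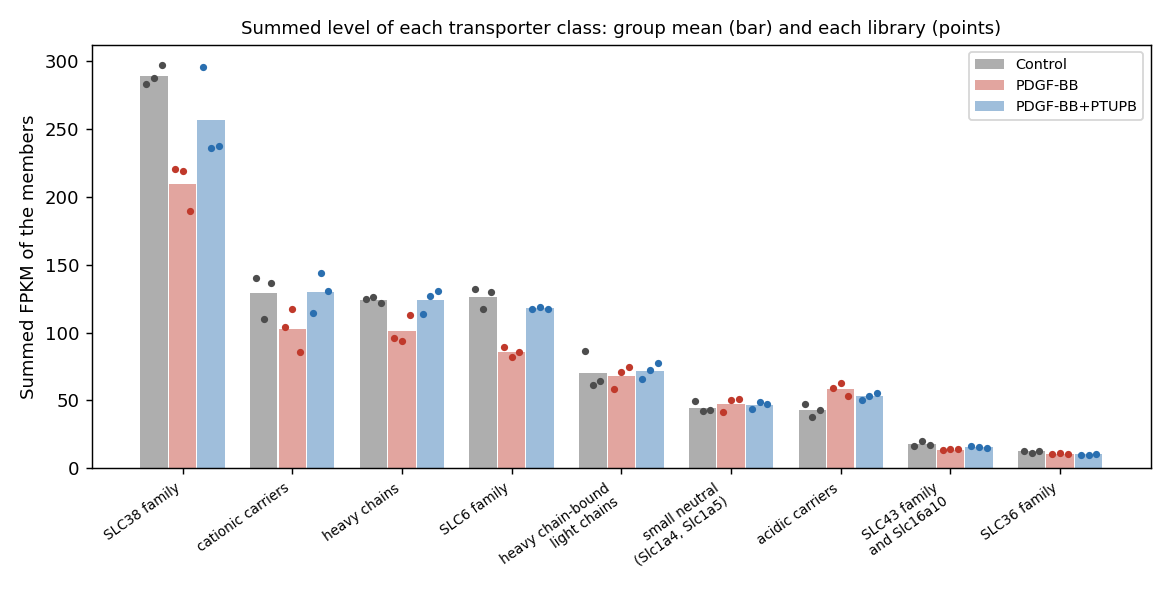
Summed FPKM of the members of each transporter class on a linear axis from 0, with bars for group means and points for the 3 libraries of each group. The red PDGF-BB bar is below the grey Control bar for the SLC38 family (209 against 289 FPKM) and the SLC6 family (85.7 against 126 FPKM) and above it for the acidic carriers (58.6 against 42.9 FPKM).

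PDGF-BB was first set against Control, the transporter response to the growth factor by itself. In this contrast, of the 27 tested members, 12 fell (44.4%) and 1 rose (3.70%). Over all 11197 tested genes, 15.8% fell and 17.3% rose (calls are at an edgeR adjusted p under 0.05). The median log2 change of the members was -0.29, against -0.02 over all tested genes. Scaled by library totals alone, 9 members fell and 1 rose, and limma on log2(FPKM + 1) gave 8 and 1. Under the offset for exonic length, 9 fell and 1 rose. Over all 11197 tested genes, 1772 fell and 1942 rose in the main fit. These numbers were 1350 and 2410 with library totals, 1283 and 2427 with limma, and 1592 and 2005 with the length offset. Changes below are edgeR log2 fold changes ± SE, with adjusted p over all tested genes. The edgeR test gives no SE itself. It was derived here as the absolute log2 change over the square root of the F statistic of the test.

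The SLC38 family held 4 of the falls. Slc38a2 was at 183, 202 and 195 FPKM in Control and at 133, 132 and 105 FPKM in PDGF-BB. Every PDGF-BB library was thus below every Control library, with a log2 change of -0.71 ± 0.13 (edgeR adjusted p = 0.00277). Slc38a4, which encodes the related system A carrier SNAT4, was at 8.82, 6.48 and 8.53 FPKM in Control and 5.46, 5.11 and 4.20 FPKM in PDGF-BB (-0.76 ± 0.19, edgeR adjusted p = 0.0129). Slc38a7, which encodes the lysosomal glutamine carrier SNAT7, went from 10.5, 12.0 and 9.76 FPKM to 7.41, 6.70 and 7.66 FPKM (-0.63 ± 0.11, edgeR adjusted p = 0.00172). In both genes the groups did not overlap. Slc38a1, the SNAT1 gene, was at 8.04, 5.11 and 7.77 FPKM in Control and 4.99, 5.07 and 5.26 FPKM in PDGF-BB (-0.52 ± 0.17, edgeR adjusted p = 0.0390). Control replicate 2 lay inside the PDGF-BB range. The Slc38a1 call was lost without any one of the other 8 libraries, with an adjusted p of up to 0.138. The range over its alternatives was 8.14e-04 to 0.138. Library totals (0.0591), limma on log2(FPKM + 1) (0.0730) and a fit of these 2 groups alone (0.101) lost it too.

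The 3 remaining tested SLC38 genes did not pass. Slc38a10 had means of 62.8 ± 8.47 FPKM in Control and 59.9 ± 0.370 FPKM in PDGF-BB. It passed as a fall without Control replicate 2 (edgeR adjusted p = 0.0113, range over its alternatives 0.00669 to 0.823). Slc38a9, a lysosomal arginine-sensing carrier that acts on mTORC1, was at 3.80 ± 0.287 and 4.46 ± 0.831 FPKM, and Slc38a6 at 3.63 ± 0.812 and 3.90 ± 0.361 FPKM. Slc38a9 passed as a rise with both Control replicate 2 and PDGF-BB replicate 3 left out (edgeR adjusted p = 0.0469, range 0.0469 to 0.788). In the deposited coordinates Slc38a6 overlaps the opposite-strand gene Trmt5 at its start, and Slc6a9, described next, overlaps Ccdc24 at its end. Reads there cannot be told apart without strand, which is not stated.

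In the SLC6 family 3 of the 4 tested genes fell. Slc6a6, the taurine transporter gene, was at 68.7, 42.5 and 71.0 FPKM in Control and 30.2, 28.5 and 32.6 FPKM in PDGF-BB, a log2 change of -1.07 ± 0.17 (edgeR adjusted p = 0.00125). Control replicate 2 was the lowest of its group and still lay above all PDGF-BB libraries. Slc6a9, which encodes the glycine transporter GlyT1, was at 21.8, 20.9 and 16.4 FPKM in Control and 15.1, 16.3 and 14.5 FPKM in PDGF-BB (-0.43 ± 0.11, edgeR adjusted p = 0.0126). Its groups were separated by a narrow gap, between Control replicate 3 and PDGF-BB replicate 2. The call was lost in a fit of these 2 groups alone (edgeR adjusted p = 0.0533, range over its alternatives 0.00308 to 0.0533). Slc6a8, the creatine transporter gene, was at 21.8, 24.6 and 21.2 FPKM in Control and 17.99, 15.98 and 20.25 FPKM in PDGF-BB (-0.39 ± 0.10, edgeR adjusted p = 0.0137). With the exonic length offset the Slc6a8 call was lost (edgeR adjusted p = 0.105, range over its alternatives 0.00241 to 0.105). Slc6a4, the serotonin transporter gene, overlapped between the groups at 18.9, 28.9 and 21.1 FPKM and 25.7, 21.1 and 18.2 FPKM (-0.15 ± 0.16, edgeR adjusted p = 0.495).

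Among the heteromeric exchangers the heavy chain fell and no tested light chain passed. Slc3a2 was at 124, 125 and 121 FPKM in Control and 95.5, 93.6 and 113 FPKM in PDGF-BB (-0.36 ± 0.09, edgeR adjusted p = 0.0111). PDGF-BB replicate 3 was the closest to Control. Slc7a5, the LAT1 light chain that imports leucine and other large neutral amino acids, was at 67.9, 42.4 and 46.8 FPKM in Control and 40.5, 51.0 and 54.1 FPKM in PDGF-BB (-0.18 ± 0.18, edgeR adjusted p = 0.460). Control replicate 1 stood above the other 8 libraries. Slc7a6 and Slc7a7, the y+LAT light chains that exchange cationic for neutral amino acids, were at 12.8 ± 0.925 and 5.14 ± 0.601 FPKM in Control and 13.1 ± 0.454 and 6.10 ± 0.958 FPKM in PDGF-BB. Slc7a6os did not pass either, at 13.1 ± 1.91 and 15.2 ± 2.53 FPKM. The FPKM ratio of Slc3a2 to Slc7a5 was 2.46 ± 0.576 in Control and 2.09 ± 0.262 in PDGF-BB, and with PTUPB added it was 2.30 ± 0.0806, with overlap between all groups.

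Of the cationic transporters, Slc7a2 fell and Slc7a1 did not pass. Slc7a2 was at 131, 104 and 130.3 FPKM in Control and 99.6, 110.1 and 79.8 FPKM in PDGF-BB, so Control replicate 2 and PDGF-BB replicate 2 overlapped (-0.41 ± 0.14, edgeR adjusted p = 0.0439). The call was lost without Control replicate 1 or 3, PDGF-BB replicate 1 or 3, or PDGF-BB+PTUPB replicate 2 or 3. Its adjusted p was then up to 0.135, with a range of 0.00879 to 0.135 over its alternatives. In edgeR it was also lost with library totals (0.0832), the exonic length offset (0.0576) and a fit of these 2 groups alone (0.108). Limma on log2(FPKM + 1) did not call it either (0.0851). Slc7a1, the CAT1 gene, had 9.33, 5.82 and 6.08 FPKM in Control and 4.48, 7.39 and 5.73 FPKM in PDGF-BB (-0.34 ± 0.22, edgeR adjusted p = 0.248). Slc7a2 was 14.02 to 21.4 times as abundant per length as Slc7a1 in Control.

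The acidic carrier Slc1a3 was the only tested member that rose. This gene encodes the glutamate and aspartate transporter GLAST, and it was at 45.4, 35.9 and 40.5 FPKM in Control and 58.1, 60.9 and 52.0 FPKM in PDGF-BB (0.42 ± 0.10, edgeR adjusted p = 0.0104). All PDGF-BB libraries were above all Control libraries. Slc1a1, a second glutamate carrier gene (EAAC1), was at 2.14, 1.68 and 1.92 FPKM in Control and 1.39, 1.32 and 1.11 FPKM in PDGF-BB. Its log2 change of -0.66 ± 0.24 did not pass (edgeR adjusted p = 0.0560), although the groups did not overlap. It passed with DESeq2 (0.0419) and in a fit of these 2 groups alone (0.0417). It also passed without Control replicate 2 (0.0491) or without replicate 1 (0.0242) or 3 (0.0410) of PDGF-BB+PTUPB, in a range of 0.0242 to 0.157 over its alternatives. The neutral amino acid carriers Slc1a5 (ASCT2, a glutamine exchanger) and Slc1a4 (ASCT1) did not pass. Slc1a5 was at 23.9, 23.2 and 21.1 FPKM in Control and 23.1, 29.8 and 30.3 FPKM in PDGF-BB (0.22 ± 0.11, edgeR adjusted p = 0.159), and it passed without PDGF-BB replicate 1 (0.0348, range 0.0348 to 0.368). Slc1a4 was at 22.1 ± 3.38 and 20.0 ± 1.08 FPKM (-0.21 ± 0.11, edgeR adjusted p = 0.177), and it passed as a fall without Control replicate 2 (0.0268, range 0.0125 to 0.577).

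The SLC43 and SLC36 families held the remaining falls. Slc43a3, which encodes a purine nucleobase carrier rather than an amino acid carrier, had 3.20, 4.36 and 3.56 FPKM in Control and 0.970, 0.680 and 1.29 FPKM in PDGF-BB. Its log2 change of -1.98 ± 0.30 was the lowest of the 27 members (edgeR adjusted p = 8.34e-04). Slc43a2, the LAT4 gene for efflux of large neutral amino acids, was at 10.1, 11.6 and 10.7 FPKM in Control and 9.76, 9.02 and 9.07 FPKM in PDGF-BB (-0.29 ± 0.08, edgeR adjusted p = 0.0205). Its call was lost without Control replicate 3 (0.0521) or PDGF-BB replicate 2 (0.0642) and under the exonic length offset (0.283), in a range of 0.0136 to 0.283. It was also lost with library totals (0.0672), limma on log2(FPKM + 1) (0.0865) and a fit of these 2 groups alone (0.0681). Slc43a1, the related LAT3 gene, did not pass, at 2.97 ± 0.598 and 2.87 ± 0.684 FPKM. Slc36a1, which encodes the proton-coupled carrier PAT1 found in lysosomes, was at 4.94, 5.34 and 5.28 FPKM in Control and 3.84, 4.42 and 4.26 FPKM in PDGF-BB (-0.38 ± 0.10, edgeR adjusted p = 0.0159). The groups did not overlap, but the call was lost without Control replicate 3 (0.0514) or PDGF-BB replicate 1 (0.0641), over a range of 0.0148 to 0.0641. It was also lost with limma on log2(FPKM + 1) (0.0511) and in a fit of these 2 groups alone (0.0502). Slc36a4, the PAT4 gene, was at 7.37 ± 1.05 and 6.58 ± 0.418 FPKM (-0.23 ± 0.12, edgeR adjusted p = 0.171), and passed as a fall without Control replicate 2 (0.0192, range 0.0192 to 0.440).

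Among the members below the filter, 2 were called when all genes with a count were tested, and both are named here after their values were seen. In that fit of PDGF-BB against Control, 1946 of 16832 genes rose and 1745 fell. It held 48 members, of which 2 rose and 13 fell. Slc7a3, a cationic transporter gene, had no count in the Control libraries, 2, 4 and 1 counts in the PDGF-BB libraries and 2, 2 and 2 counts in the PDGF-BB+PTUPB libraries. Against a floor of 3 counts over the Control group, the 7 counts with PDGF-BB gave a ratio of 2.79 after scaling for library totals. The edgeR adjusted p without the filter was 0.0490. Neither the counting error of the 7 counts nor the spread between libraries is in this ratio, so it is no lower bound. Slc6a16, an orphan SLC6 gene, had 7, 11 and 5 counts in Control, 0, 2 and 1 in PDGF-BB and 6, 3 and 1 in PDGF-BB+PTUPB (edgeR adjusted p = 0.0491 without the filter for PDGF-BB against Control).

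**Figure D3:**
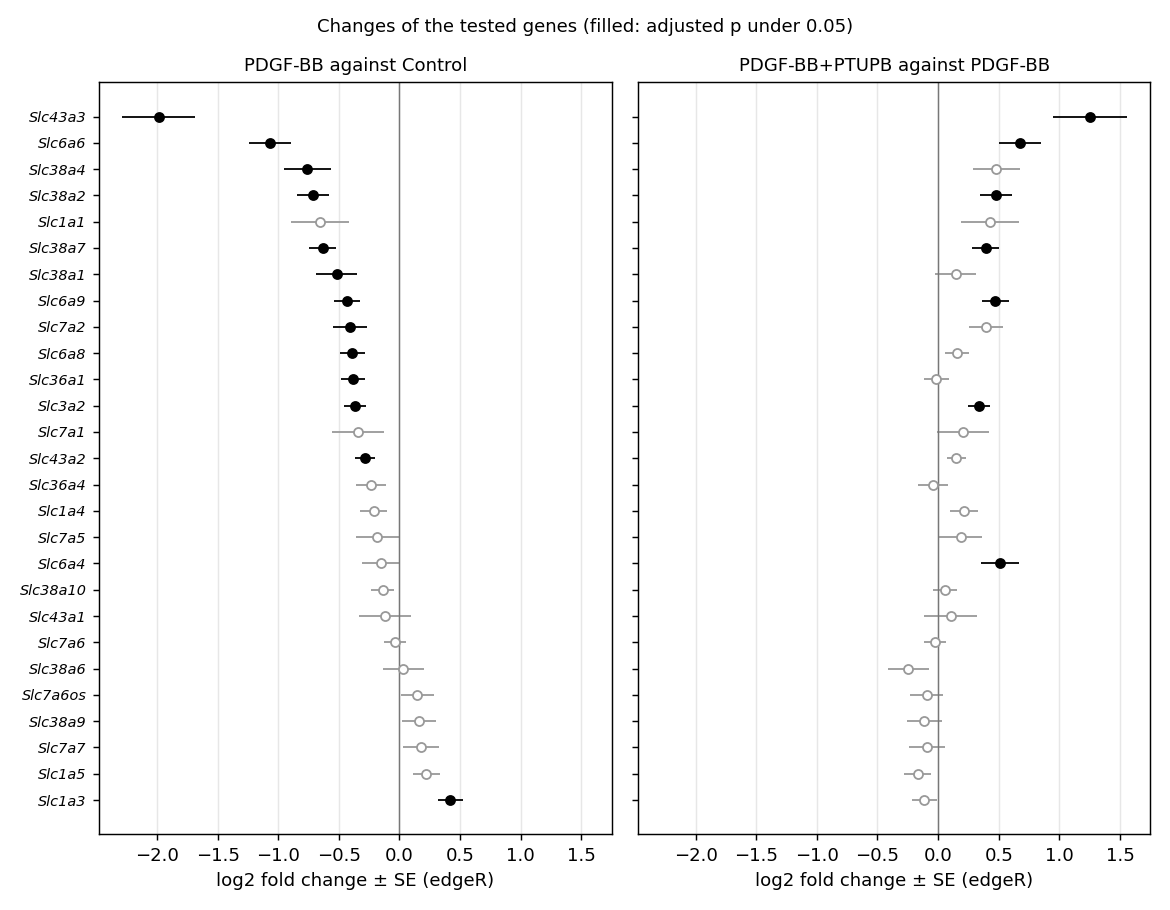
Log2 fold changes ± SE (edgeR) of the 27 tested genes for PDGF-BB against Control on the left and PDGF-BB+PTUPB against PDGF-BB on the right, in the same gene order, with filled points for adjusted p under 0.05. Filled points number 12 left of 0 and 1 right of 0 in the left panel, and 7 right of 0 in the right panel; both panels share the PDGF-BB libraries.

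Adding PTUPB to growth factor-treated cells was examined next, as PDGF-BB+PTUPB against PDGF-BB. Of the 27 tested members, 7 rose (25.9%) and 0 fell. Over all tested genes, 8.28% rose and 10.0% fell by the same edgeR test. No member was lower at an unadjusted edgeR p under 0.05 either, and 9 were higher at that level. The share of all tested genes at that level is not given here, so these member counts have no background. DESeq2 called 8 members higher and 0 lower, beside 1057 higher and 1251 lower of all 11197 tested genes. The median log2 change was 0.15 among the members and 0.01 over all tested genes. This comparison and the preceding one share the PDGF-BB libraries, so the changes of a gene in them are not independent. The number of rises depended on single libraries. It was 1 without PDGF-BB replicate 2 and 1 without PDGF-BB+PTUPB replicate 1. It was 2 without PDGF-BB replicate 1, 3 without PDGF-BB+PTUPB replicate 2 and 4 without PDGF-BB+PTUPB replicate 3. Limma on log2(FPKM + 1) called 4. Over all 11197 tested genes, 927 rose in the main fit. That number was 622 without PDGF-BB replicate 2, 462 without PDGF-BB+PTUPB replicate 1 and 626 without PDGF-BB replicate 1. It was 495 and 615 without PDGF-BB+PTUPB replicates 2 and 3, and 728 with limma.

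Slc43a3 had the largest log2 change of these members, from 0.970, 0.680 and 1.29 FPKM in PDGF-BB to 3.27, 1.92 and 1.65 FPKM in PDGF-BB+PTUPB (1.25 ± 0.31, edgeR adjusted p = 0.0191). All libraries with PTUPB were above those without it, and PDGF-BB+PTUPB replicate 1 was well above the other two. Slc6a6 went from 30.2, 28.5 and 32.6 FPKM to 48.4, 49.6 and 43.6 FPKM (0.68 ± 0.17, edgeR adjusted p = 0.0240). Slc6a9 went from 15.1, 16.3 and 14.5 FPKM to 21.2, 19.5 and 21.2 FPKM (0.47 ± 0.11, edgeR adjusted p = 0.0160). In both carrier genes the libraries of each group lay close together, and the groups were apart. Slc6a4 went from 25.7, 21.1 and 18.2 FPKM to 28.5, 29.8 and 31.6 FPKM (0.51 ± 0.16, edgeR adjusted p = 0.0473). The Slc6a4 call was lost without any one of 6 libraries (up to 0.135, range 0.0118 to 0.135). These were Control replicate 3, PDGF-BB replicates 2 and 3, and each of those with PTUPB. The call was also lost with library totals (0.0721), limma on log2(FPKM + 1) (0.0675) and the exonic length offset (0.0592).

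Among the neutral amino acid carriers, Slc38a2 went from 133, 132 and 105 FPKM to 203, 147 and 151 FPKM (0.48 ± 0.13, edgeR adjusted p = 0.0338). PDGF-BB+PTUPB replicate 1 reached the Control level, and the other two libraries lay between the groups. The call was lost without PDGF-BB+PTUPB replicate 1 (0.117), PDGF-BB replicate 1 (0.0526), 2 (0.0670) or 3 (0.0831), or Control replicate 3 (0.0530), in a range of 0.00784 to 0.117. Limma on log2(FPKM + 1) (0.0541) and a fit of the 2 compared groups alone (0.0565) lost it too. Slc38a7 went from 7.41, 6.70 and 7.66 FPKM to 10.0, 9.58 and 8.14 FPKM (0.39 ± 0.11, edgeR adjusted p = 0.0334). It was not called under the length offset (0.0794), with library totals (0.0508) or with limma on log2(FPKM + 1) (0.0665). Nor was it called without PDGF-BB replicate 1 (0.0730) or 2 (0.106), or without replicate 1 (0.128) or 2 (0.111) of the PTUPB libraries, in a range of 0.0145 to 0.128. The heavy chain gene Slc3a2 went from 95.5, 93.6 and 113 FPKM to 112.98, 126.61 and 130.02 FPKM (0.33 ± 0.09, edgeR adjusted p = 0.0289). Its groups were apart by less than 1 FPKM, between PDGF-BB replicate 3 and PDGF-BB+PTUPB replicate 1.

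The calls of Slc3a2, Slc43a3, Slc6a6 and Slc6a9 also rested on single libraries. The Slc3a2 call was lost without PDGF-BB replicate 1 (0.0969) or 2 (0.0804), or without replicate 2 (0.101) or 3 (0.0931) of PDGF-BB+PTUPB, in a range of 0.00176 to 0.101. The Slc43a3 call depended on PDGF-BB replicates 1 (0.0561 without it) and 2 (0.0618) and on replicate 1 of PDGF-BB+PTUPB (0.0707), in a range of 9.29e-04 to 0.0707. The Slc6a6 call was lost on leaving out PDGF-BB replicate 1 (0.0665) or 2 (0.0788), or replicate 1 (0.0777) or 2 (0.0791) of PDGF-BB+PTUPB, in a range of 1.76e-04 to 0.0791. The Slc6a9 call was lost only on leaving out replicate 1 (0.0640) or 3 (0.0537) of PDGF-BB+PTUPB, among the alternatives run, in a range of 0.00211 to 0.0640. The log2 changes themselves stayed positive throughout these alternatives, between 0.27 and 0.43 for Slc3a2, 0.71 and 1.51 for Slc43a3, 0.61 and 0.73 for Slc6a6 and 0.41 and 0.51 for Slc6a9.

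**Figure D4:**
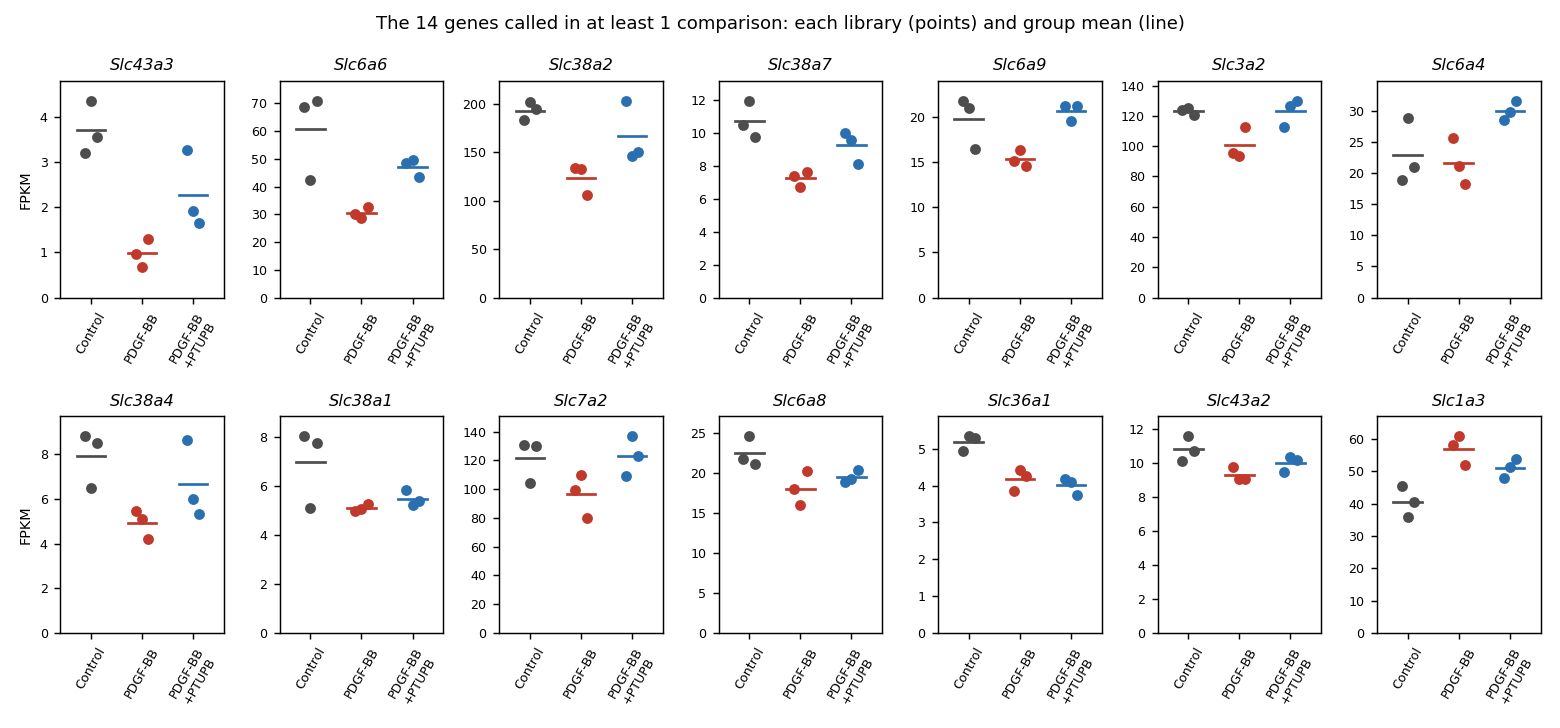
FPKM of the 14 genes called in at least 1 comparison, on linear axes from 0, with one point per library and a line at the group mean. Slc6a6 and Slc43a3 show the red PDGF-BB points apart from both other groups, Slc36a1 shows PDGF-BB and PDGF-BB+PTUPB together below Control, and Slc1a3 is the panel with Control lowest.

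Several genes that fell with PDGF-BB did not pass in this comparison. Slc38a4 reached 8.66, 6 and 5.34 FPKM with PTUPB (0.48 ± 0.20, edgeR adjusted p = 0.117), with the last library inside the PDGF-BB range. Slc7a2 was at 109, 137 and 123 FPKM (0.39 ± 0.14, edgeR adjusted p = 0.0745), and passed with DESeq2 (0.0457) or when Control replicate 2 was left out (0.0427), in a range of 0.0427 to 0.235. Slc38a1 was at 5.83, 5.24 and 5.38 FPKM (0.14 ± 0.17), Slc6a8 at 18.9, 19.3 and 20.4 FPKM (0.15 ± 0.10, passing only with Control replicate 2 and PDGF-BB replicate 3 both left out) and Slc43a2 at 9.48, 10.4 and 10.2 FPKM (0.15 ± 0.08). Slc36a1 was at 4.19, 4.10 and 3.73 FPKM, which overlapped with PDGF-BB (-0.01 ± 0.10, edgeR adjusted p = 0.940). Slc1a3 was at 48.0, 51.3 and 53.9 FPKM (-0.11 ± 0.10, edgeR adjusted p = 0.477). The light chain Slc7a5 was at 47.3, 55.2 and 58.3 FPKM (0.19 ± 0.18, edgeR adjusted p = 0.514) and the glutamine exchanger Slc1a5 at 22.03, 24.98 and 24.94 FPKM (-0.17 ± 0.11, edgeR adjusted p = 0.342).

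Cells given both agents, PDGF-BB+PTUPB, were then set against DMSO-treated Control. By edgeR, 0 of the 27 members rose and 0 fell, beside 1.89% and 0.313% of all tested genes. At an unadjusted edgeR p under 0.05, 2 were higher and 7 lower. No share of all tested genes is given for that level, so no lean of the members can be read from it. DESeq2 also called 0 members, beside 328 higher and 113 lower of all 11197 tested genes. The median log2 change was -0.08 among the members and -0.01 over all tested genes. The smallest adjusted p belonged to Slc36a1 (-0.40 ± 0.10, edgeR adjusted p = 0.0922), whose 3 libraries at 3.73 to 4.19 FPKM lay below the 4.94 to 5.34 FPKM of Control. Slc6a8 also lay below Control in every library (-0.23 ± 0.10, edgeR adjusted p = 0.344), and Slc1a3 above it (0.30 ± 0.10, edgeR adjusted p = 0.215). The lowest log2 change was that of Slc43a3 (-0.73 ± 0.28, edgeR adjusted p = 0.283), and the highest that of Slc6a4 (0.36 ± 0.16, edgeR adjusted p = 0.347). For Slc38a2 it was -0.24 ± 0.13, for Slc3a2 -0.03 ± 0.09, for Slc6a9 0.04 ± 0.11 and for Slc7a2 -0.01 ± 0.14, none of which passed.

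Leaving out Control replicate 2 brought calls in this comparison. Without it Slc38a1 (edgeR adjusted p = 0.0268, range over its alternatives 0.00815 to 0.723) and Slc6a6 (0.00947, range 0.00101 to 0.731) were lower than in Control. With PDGF-BB replicate 3 left out as well, 5 members were lower, namely Slc36a1, Slc36a4, Slc38a1, Slc38a10 and Slc6a6. Slc6a4 was higher (edgeR adjusted p = 0.00708, range 0.00708 to 0.711). Calls rose in number over all 11197 tested genes too. There, 35 were lower and 212 higher in the main fit, 147 and 193 without Control replicate 2, and 695 and 650 without both libraries. In Control replicate 2 and PDGF-BB replicate 3 the deviation of a gene from the rest of its group ran down with exonic length. Spearman's rho across genes was -0.389 and -0.381, a description, since genes are no independent replicates. Control replicate 1 (0.348) and PDGF-BB replicate 2 (0.350) had trends of like size in the opposite direction. The tested members had a median exonic length of 3290 bases, against 2336 bases over all tested genes. The part of length in these calls was not tested.

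The surrounding pathway genes were taken from lists chosen with earlier results of these data known, so they are descriptions. Of 14 tested carriers of amino acids or peptides outside the symbol rule, 7 fell and 1 rose with PDGF-BB, beside 15.8% lower and 17.3% higher over all tested genes, and the median log2 change was -0.57 (-0.02 over all). With PTUPB, 5 rose against PDGF-BB, beside 8.28% of all tested genes, with a median of 0.37 (0.01 over all). Against Control, 1 of the 14 was lower in PDGF-BB+PTUPB, beside 0.313% of all tested genes. The genes that fell included those of lysosomal carriers, the cystine exporter gene Ctns (-0.69 ± 0.10) and the sialic acid and acidic amino acid carrier gene Slc17a5 (-0.57 ± 0.08). Against PDGF-BB, PDGF-BB+PTUPB had higher Ctns (0.62 ± 0.10) and Slc25a44 (0.63 ± 0.15), a mitochondrial carrier gene for branched-chain amino acids.

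In the lists of amino acid sensing and use, calls went in both directions, and they are to be read beside the shares of all tested genes (17.3% higher and 15.8% lower with PDGF-BB, 8.28% and 10.0% with PTUPB added). Of 31 tested genes of amino acid sensing and mTORC1, 5 fell and 2 rose with PDGF-BB (median -0.06). The falls included Wdr59 (-0.60 ± 0.10), a subunit of the GATOR2 complex, and Flcn (-0.63 ± 0.11), the folliculin gene, and the rises included Sec13 (0.52 ± 0.09), which serves GATOR2, the nuclear pore and vesicle coats. With PTUPB 3 of the 31 rose and 1 fell against PDGF-BB, with Fnip2 (0.83 ± 0.19), Wdr59 (0.47 ± 0.10) and Sec13 (-0.46 ± 0.09) among them. Of 21 tested ATF4 targets, the genes of the amino acid starvation response, 4 rose and 3 fell with PDGF-BB (median 0.13). The serine synthesis gene Psat1 rose (1.07 ± 0.16) and Vldlr (-0.79 ± 0.10) and Stc2 (-0.93 ± 0.14) fell. Against PDGF-BB, PDGF-BB+PTUPB had 4 higher and 2 lower ATF4 targets, with Vldlr (0.89 ± 0.10), Atf5 (0.82 ± 0.13) and Stc2 (0.69 ± 0.14) higher.

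Of 20 tested cytosolic aminoacyl-tRNA synthetases, which charge tRNA with amino acids, 5 rose and 3 fell with PDGF-BB, beside 17.3% and 15.8% of all tested genes, including Kars (0.63 ± 0.08), Farsb (0.34 ± 0.08) and Aars (-0.37 ± 0.10), at a median of 0.10. With PTUPB 1 rose and 2 fell, beside 8.28% and 10.0% of all tested genes, namely Sars1 (0.33 ± 0.09), Farsb (-0.39 ± 0.08) and Kars (-0.38 ± 0.08). Of 18 tested enzymes of glutamine, branched-chain, arginine and proline metabolism, 4 rose and 2 fell with PDGF-BB (median 0.11). The aspartate aminotransferase gene Got2 (0.81 ± 0.09) and the ornithine decarboxylase gene Odc1 (0.98 ± 0.16) rose, and Bckdha (-0.60 ± 0.10), a subunit of the branched-chain keto acid dehydrogenase, fell. With PTUPB 1 rose and 4 fell, with Got2 (-0.64 ± 0.09), Odc1 (-0.96 ± 0.16) and Bckdha (0.59 ± 0.10) among them.

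Promoter sequences are shown so that members that moved together can be compared. They are those of Slc38a2, Slc6a6, Slc6a9, Slc38a7 and Slc3a2, which were called in both of the first comparisons, and of Slc1a3, which went the other way with PDGF-BB. Windows of 300 bases, from 250 before to 50 after an annotated start, came from RefSeq on build GRCr8 and were found by symbol for 21 of the 27 tested members. They were not found for Slc43a3, Slc7a2, Slc38a10, Slc6a4, Slc1a5 and Slc1a1. Slc3a2 has 2 windows and Slc1a3 has 3 overlapping ones, and the first listed is printed. Sequences run 5′ to 3′ along the gene, and capitals mark GGGCGG (the GC box) or CACGTG (an E-box) on either strand, which do not overlap here.
Slc38a2 (chr7:129742570-129742869, - strand): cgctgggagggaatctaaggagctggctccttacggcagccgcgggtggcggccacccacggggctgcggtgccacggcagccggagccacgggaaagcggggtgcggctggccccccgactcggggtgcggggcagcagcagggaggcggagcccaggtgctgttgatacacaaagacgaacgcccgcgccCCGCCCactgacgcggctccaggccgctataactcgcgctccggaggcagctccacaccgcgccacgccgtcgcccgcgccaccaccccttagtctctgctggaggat
Slc6a6 (chr4:125752252-125752551, + strand): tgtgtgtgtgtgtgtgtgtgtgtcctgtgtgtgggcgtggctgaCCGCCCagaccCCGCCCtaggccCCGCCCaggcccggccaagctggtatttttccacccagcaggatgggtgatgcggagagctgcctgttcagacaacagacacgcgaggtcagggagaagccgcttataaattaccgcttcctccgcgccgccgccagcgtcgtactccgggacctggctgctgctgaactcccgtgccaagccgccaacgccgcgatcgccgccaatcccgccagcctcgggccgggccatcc
Slc6a9 (chr5:136659826-136660125, + strand): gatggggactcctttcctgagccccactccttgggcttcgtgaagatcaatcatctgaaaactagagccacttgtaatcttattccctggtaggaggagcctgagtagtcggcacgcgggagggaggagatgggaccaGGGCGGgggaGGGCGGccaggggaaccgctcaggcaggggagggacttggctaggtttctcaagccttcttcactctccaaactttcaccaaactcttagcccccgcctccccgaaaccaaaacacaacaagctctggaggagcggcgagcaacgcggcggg
Slc38a7 (chr19:9215128-9215427, + strand): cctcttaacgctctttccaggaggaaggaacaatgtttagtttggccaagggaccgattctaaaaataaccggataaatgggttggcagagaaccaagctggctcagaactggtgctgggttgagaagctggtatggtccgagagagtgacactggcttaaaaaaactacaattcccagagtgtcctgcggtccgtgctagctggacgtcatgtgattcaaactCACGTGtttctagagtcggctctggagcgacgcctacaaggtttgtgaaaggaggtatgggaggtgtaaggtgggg
Slc3a2 (chr1:215048015-215048314, - strand): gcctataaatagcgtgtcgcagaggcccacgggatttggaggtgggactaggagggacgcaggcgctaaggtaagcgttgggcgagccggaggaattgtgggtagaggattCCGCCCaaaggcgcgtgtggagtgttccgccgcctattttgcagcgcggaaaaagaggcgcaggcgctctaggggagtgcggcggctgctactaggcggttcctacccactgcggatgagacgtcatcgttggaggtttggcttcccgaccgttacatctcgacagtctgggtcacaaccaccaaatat
Slc1a3 (chr2:59557759-59558058, - strand): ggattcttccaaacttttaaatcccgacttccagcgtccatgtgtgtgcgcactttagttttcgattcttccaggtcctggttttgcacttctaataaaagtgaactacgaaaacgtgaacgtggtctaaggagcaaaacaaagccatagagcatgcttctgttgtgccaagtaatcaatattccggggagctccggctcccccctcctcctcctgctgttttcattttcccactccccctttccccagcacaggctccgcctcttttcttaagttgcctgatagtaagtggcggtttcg

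The letters GGGCGG occurred once in the windows of Slc38a2 and Slc3a2, 2 times in that of Slc6a9, 3 times in that of Slc6a6 and not in those of Slc38a7 and Slc1a3. Of the 21 tested members with a window, 15 held it, and 33.1% of all 33469 RefSeq windows did. For every motif a member was counted if any of its windows held the letters, whereas the share over all is per window. The 33469 windows were also not limited to genes expressed here, so these figures are not like for like. CACGTG was found in the window of Slc38a7, starting 26 bases before the gene start, and in those of Slc36a1, Slc1a4, Slc43a1 and Slc7a5, against 6.42% of all windows. The core letters of the amino acid response element, TGATGNAA, were in the windows of Slc38a1, Slc7a1 and Slc1a4 and in 3.98% of all windows. The AP-1 letters TGACTCA were in none of the 21 windows and in 4.63% of all. All motifs were searched on both strands, and a match of letters is a description and not a binding site.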

How the data were processed

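The values are those of 9 RNA-seq libraries, 3 each of Control, PDGF-BB and PDGF-BB+PTUPB, with groups taken from the sample labels. Per the labels' protocols, poly(A) RNA was primed at random and sequenced paired-end. Per the submitters' processing notes, cutadapt 1.9.1, HISAT2 2.0.1 and HTSeq 0.6.1 were used, with mm10 named as the build, whereas all identifiers are rat Ensembl genes, so no gene coordinates of the file are given. The authors deposited expected counts per gene (978 genes, among them Slc6a9, have a value that is not whole) and FPKM, which equalled counts over exonic length and library total within 0.006 in 100% of values. The strand used in counting is not given in the sources used here.

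Levels are deposited FPKM. The 11197 genes that reached 1 FPKM in 3 or more of the 9 libraries were tested on rounded counts by the quasi-likelihood test of edgeR 4.0.16 (TMM scaling, all libraries fitted together by group with no covariate, 6 residual degrees of freedom) in R 4.3.3, two-sided, and called at a Benjamini-Hochberg adjusted p under 0.05. Data for PDGF-BB against Control were simulated with 11197 genes, of which 100 were changed 1.5-fold and 100 2-fold. Of these, 45% and 77% were recovered, with 7 false calls in all. Far more genes, 3714, were called in the real comparison, so these shares need not hold there. Alternatives were RLE size factors, library totals, DESeq2 1.42.0, limma 3.58.1 on log2(FPKM + 1) and log2(FPKM + 0.1), no filter, a minimum of 5 FPKM, fits of 2 groups, a replicate block, an exonic length offset, and libraries left out. The members, lists and tests were chosen with earlier results of these data known; promoter motifs were chosen during the analysis. Every tested member is named; of each list up to 3 called genes by smallest p in a comparison, apart from a gene that is not reported here.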

Additional observations from a re-analysis of the deposited data

How the results depend on the processing

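With 20 alternatives, 7 of the 20 called member changes were called under each alternative that tested them, all for PDGF-BB against Control: the rise of Slc1a3 and the falls of Slc38a2, Slc38a4, Slc38a7, Slc3a2, Slc43a3 and Slc6a6. None of the 20 changed sign under any alternative. Leaving out 1 library at a time gave 8 to 16 members lower and 1 to 2 higher for PDGF-BB against Control. It gave 1 to 8 higher for PDGF-BB+PTUPB against PDGF-BB, and 0 to 2 lower and 0 higher for PDGF-BB+PTUPB against Control. Over all tested genes, these fits gave 1268 to 1872 lower and 1502 to 2030 higher in the first comparison. They gave 462 to 1150 higher in the next, and 3 to 147 lower and 90 to 271 higher in the last. The cause of these differences was not tested, beyond the smaller number of libraries.

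For PDGF-BB against Control, 2 members were higher with no filter and 2 without both Control replicate 2 and PDGF-BB replicate 3, where 14 were lower. Over all genes, 1946 of 16832 were higher with no filter. Without both libraries 2083 of 11197 were higher and 2182 lower. For PDGF-BB+PTUPB against PDGF-BB, limma called 4 higher with a pseudocount of 1 and 4 with 0.1, and the cause was not tested. For PDGF-BB+PTUPB against Control, leaving out both of those libraries gave 1 higher and 5 lower. Over all tested genes that comparison had 247 calls, against 441 with DESeq2, 1345 without both libraries and 93 to 340 with 1 library left out. PDGF-BB+PTUPB against PDGF-BB had 2048 calls over all tested genes and 1002 to 2463 with 1 library left out. PDGF-BB against Control had 52.3% of its calls higher, and 64.1% with library totals and 65.4% with limma on log2(FPKM + 1). PDGF-BB+PTUPB against PDGF-BB had 45.3% higher, against 34.9% and 33.9%.

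For same-numbered libraries of different groups, the correlations of their deviations from the group means ran from -0.238 to 0.177. For differently numbered libraries they ran from -0.231 to 0.231, so these values showed no pairing by number. The length trends given above are part of these deviations, and whether they hide a pairing was not tested. With the replicate block 12 members were lower and 1 higher for PDGF-BB against Control, and 5 were higher for PDGF-BB+PTUPB against PDGF-BB. Over all tested genes the block gave 1550 lower and 1744 higher in the first of these comparisons and 730 higher in the next. The block lost Slc7a2 in the first comparison (edgeR adjusted p = 0.0735) and Slc38a7 (0.0597) and Slc6a4 (0.0728) in the next, and added Slc1a1 in the first (0.0376). The 54 of 1602 member values that changed sign under an alternative were called in neither fit. Among the changes given one by one, log2 changes near 0 turned sign as follows. For PDGF-BB+PTUPB against PDGF-BB, Slc36a1 was -0.067 to 0.035 with 1 library left out and 0.0059 without both. For PDGF-BB against Control, Slc6a4 was -0.29 to 0.038 with 1 library left out and 0.14 without both, and Slc7a5 was -0.32 to 0.062 with 1 library left out. For PDGF-BB+PTUPB against Control, Slc3a2 was -0.074 to 0.028, Slc6a9 was -0.076 to 0.13 and Slc7a2 was -0.12 to 0.064 with 1 library left out, and Slc7a2 was 0.013 with library totals, 0.014 with limma on log2(FPKM + 1) and 0.015 on log2(FPKM + 0.1). Of the 35 members below the filter, 14 had no count and 13 had 1 to 30 counts over the 9 libraries, which limits what a comparison of them can show.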
